A study of Mus musculus with 12 samples.

Results

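Rsrp1, 3 CDC-like kinases (Clk1, Clk2 and Clk4), 4 serine/arginine-rich splicing factors (Srsf2, Srsf3, Srsf5 and Srsf7), the RNA helicase gene Ddx5 and the nuclear speckle gene Son were followed across sham and ischemic mouse brains. These 10 genes, of 31208 in the deposited table, were found by their symbols, and each symbol matched 1 row. They were chosen by their counts and CPM in these same mice, as seen in earlier results, so the differences between groups given for them are descriptions and carry no test. The tests of group differences were read for 142 other splicing genes instead.

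All 12 mice were C57BL/6 animals aged 8 weeks, with 4 in each of 3 groups. The sham group had no ischemia, and whether sham mice received an injection is not given in the sources used here. The vehicle group and the lactate group both had cerebral ischemia for 6 h by filament occlusion of the middle cerebral artery. Before the occlusion, vehicle mice had received saline and lactate mice had received lactate into a brain ventricle, and the methods name D-lactate while the labels name lactate without its form. None of these 12 mice received lactate without ischemia, so its effect in a sham brain was not analysed here. In other mice without ischemia, the paper reported little influence of lactate on the numbers of neurons, astrocytes and microglia. Whole RNA of brain tissue was converted to cDNA, amplified by PCR and read as long nanopore reads. Total counts ranged from 6815920 to 10677224 per mouse, the largest being vehicle mouse 1. Levels are given as CPM, the reads of a gene scaled to the total counted in that mouse, and all transcripts of a gene are summed in 1 value. In such bulk tissue, fewer cells of a type and less RNA per cell cannot be told apart.

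SR proteins bind exonic RNA through RNA recognition motifs and recruit the spliceosome through tails rich in arginine and serine. These tails are phosphorylated by the SRPK kinases in the cytoplasm and by the CLK kinases in the nucleus, which releases SR proteins from nuclear speckles, the storage sites for splicing factors that SON helps to hold together. DDX5 is a DEAD box RNA helicase that acts in splicing, transcription and microRNA processing. Many genes of this system limit their own output by switching to transcripts with a retained intron or an early stop codon, and the CLK genes are a known case in which such intron-retaining transcripts wait in the nucleus and are spliced on stress. RSRP1, an arginine and serine rich protein, is much less studied.

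In the GENCODE annotation of build GRCm38, Rsrp1 (ENSMUSG00000037266) lies on chromosome 4 from 134923592 to 134927671 on the plus strand, and Clk1 (ENSMUSG00000026034) lies on chromosome 1 from 58410189 to 58424066 on the minus strand. Srsf3 and Srsf7 share chromosome 17, from 29032628 to 29043373 on the plus strand and from 80200080 to 80207307 on the minus strand. Clk4 (51261730 to 51281766, plus strand), Ddx5 (106780355 to 106789185, minus strand) and Srsf2 (116849901 to 116853094, minus strand) lie far apart on chromosome 11. Clk2 lies on chromosome 3 from 89164795 to 89176921, Srsf5 on chromosome 12 from 80945504 to 80950507 and Son on chromosome 16 from 91647506 to 91679221, all on the plus strand. The 10 genes therefore form no cluster in the genome. Retained-intron transcripts are annotated for 10 of the 10 genes, against 57.2% of the 12889 protein-coding genes tested. Transcripts marked for nonsense-mediated decay are annotated for 9 of the 10, Rsrp1 being the exception, against 28.7%. The 10 genes also have more annotated transcripts per gene, with a median of 10.5 against 5, which by itself gives each class more chances to occur. Clk1 has 7 retained-intron transcripts among 13, and Clk4 has 7 among 14. Since isoforms were summed, a fall in a coding transcript and a fall in an intron-retaining one look the same in these counts.

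The sequences before the start sites are shown for Rsrp1, whose level differed most, for Clk4, whose window holds 3 matches to the motif TGACG, and for Srsf3, whose mean level was highest in lactate brains. RefSeq promoters of build GRCm38.p6 were found for 9 of the 10 genes, all but Clk1, and the 250 bases before the listed start were searched on both strands for 6 motifs. Capitals mark the motif matches, and each sequence runs 5′ to 3′ on the strand of its gene. The GENCODE genes of Rsrp1 and Srsf3 begin within the last bases of these windows, and for Clk4 the whole window lies inside the GENCODE gene.
Rsrp1 promoter, plus strand, chr4:134923375-134923624: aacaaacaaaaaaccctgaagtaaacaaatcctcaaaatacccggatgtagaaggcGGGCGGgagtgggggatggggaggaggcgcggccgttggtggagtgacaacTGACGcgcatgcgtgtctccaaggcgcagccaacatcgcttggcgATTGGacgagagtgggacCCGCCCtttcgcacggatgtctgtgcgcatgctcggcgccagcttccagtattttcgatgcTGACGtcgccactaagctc
Clk4 promoter, plus strand, chr11:51262864-51263113: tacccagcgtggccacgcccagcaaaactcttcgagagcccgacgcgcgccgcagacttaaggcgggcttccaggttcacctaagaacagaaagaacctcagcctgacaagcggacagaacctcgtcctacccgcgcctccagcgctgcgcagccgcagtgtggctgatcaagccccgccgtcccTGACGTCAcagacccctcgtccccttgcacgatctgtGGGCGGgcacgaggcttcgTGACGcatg
Srsf3 promoter, plus strand, chr17:29032410-29032659: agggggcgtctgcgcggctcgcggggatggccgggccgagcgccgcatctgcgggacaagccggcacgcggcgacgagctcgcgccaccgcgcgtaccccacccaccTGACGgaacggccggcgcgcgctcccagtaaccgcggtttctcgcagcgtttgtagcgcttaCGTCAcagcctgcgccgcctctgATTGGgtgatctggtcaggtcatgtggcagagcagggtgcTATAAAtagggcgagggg

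The motif TGACG, the core of the cAMP response element (CRE), was present in 6 of the 9 promoters (Rsrp1, Clk2, Clk4, Srsf3, Srsf5 and Son), against 17.9% of 27025 mouse promoters of the same length. In the Rsrp1 promoter it lay 143 and 19 bases before the start. In the Clk4 promoter, matches on opposite strands at 65 and 62 bases before the start overlap to form TGACGTCA, the full palindrome. The CCAAT box CCAAT was found in 6 of the 9 against 34.5%, and the GC box GGGCGG in 6 of the 9 against 32.9%. The E-box CACGTG was found only in the promoter of Clk2 among the 9, the ETS core CCGGAAG in those of Srsf5 and Srsf7, and the TATA box TATAAA in those of Srsf2 and Srsf3, against 6.05%, 7.05% and 13.0% of all promoters. All 9 windows held more G and C, from 56.8% to 69.6%, than the median promoter at 52%. GC-rich windows hold more matches to motifs with CG in them, and binding to these windows was not analysed here.

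Rsrp1 was the member with the largest difference between groups. Its level was 335, 356, 1434 and 869 CPM in sham mice 1 to 4, 335, 586, 443 and 634 CPM in vehicle mice, and 98.3, 169, 143 and 157 CPM in lactate mice. Every lactate mouse lay below every vehicle mouse and every sham mouse, while the sham and vehicle groups overlapped. The group means were 748 ± 519.8 (SD, n = 4) in sham, 499 ± 136 in vehicle and 142 ± 30.8 CPM in lactate brains. In lactate brains Rsrp1 was 3.57-fold lower than in vehicle brains (log2 fold change -1.84 ± 0.21, standard error) and 5.16-fold lower than in sham brains (-2.37 ± 0.39). Vehicle relative to sham gave -0.55 ± 0.39, within the wide spread of the sham mice.

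The spread of Rsrp1 among sham mice was itself unusual for this table. Its coefficient of variation was 69.5% among sham mice, larger than that of 98.9% of the genes tested, where the median gene had 18.3%. Among vehicle mice it was 27.3% against a median of 24.7%, and among lactate mice 21.7% against 18.9%. Sham mouse 3 stood 4.29-fold above sham mouse 1. Without sham mouse 3, the log2 fold change of Rsrp1 for lactate against sham was -1.85 ± 0.30, and for vehicle against sham it was close to 0, at -0.03. Leaving out each mouse in turn kept the difference between lactate and vehicle from -1.98 to -1.70.

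The 3 CLK genes were each lower on average in lactate brains than in vehicle or sham brains, with very different spreads. Clk1, a dual-specificity kinase that phosphorylates SR proteins, was at 37.7, 18.1, 27.7 and 25.4 CPM in sham mice, 19.1, 32.8, 30.4 and 19.1 CPM in vehicle mice, and 14.3, 16.3, 14.5 and 13.9 CPM in lactate mice. The highest lactate mouse was below the lowest mouse of either other group, and the sham and vehicle groups overlapped. On the log2 scale, Clk1 in lactate brains differed by -0.80 ± 0.21 from vehicle and by -0.84 ± 0.19 from sham, while vehicle differed by -0.06 ± 0.24 from sham. The coefficient of variation of Clk1 was 7.10% in lactate mice and 28.7% in vehicle mice.

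Clk2, a kinase of the same family, had few reads, with 22 to 157 counts per mouse. It was at 17.7, 7.58, 13.6 and 6.78 CPM in sham mice, 11.8, 5.18, 19.5 and 5.14 CPM in vehicle mice, and 5.003, 2.63, 11.2 and 4.99 CPM in lactate mice. All 3 groups overlapped, and mouse 3 was the highest in both ischemic groups. For Clk2 the log2 fold change of lactate brains was -0.83 ± 0.48 against vehicle and -0.90 ± 0.39 against sham, and leaving out 1 mouse moved the former from -0.36 (without vehicle mouse 3) to -1.33 (without lactate mouse 3) and the latter as far as -1.38 (without lactate mouse 3).

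Clk4, the closest relative of Clk1, was at 129, 92.9, 92.6 and 127 CPM in sham mice, 74.3, 157, 166 and 121 CPM in vehicle mice, and 73.2, 116, 63.0 and 105 CPM in lactate mice. All 3 groups overlapped, and of the vehicle mice only mouse 1 lay within the lactate range. Clk4 had a log2 fold change of -0.55 ± 0.25 between lactate and vehicle brains, and of -0.74 without vehicle mouse 1. Clk4 shares its position on chromosome 11 with BC049762 on the opposite strand and with a small RNA gene on its own strand, and whether counting used strand is not stated, so some of its reads may belong to them. Clk3, the remaining kinase of the family and a gene of the comparison lists chosen here for its kinship after its values were seen, had means of 38.7 ± 7.11 CPM in sham, 41.0 ± 8.77 in vehicle and 38.8 ± 7.36 in lactate brains (SD, n = 4), with a log2 fold change of -0.10 ± 0.19 for lactate against vehicle.

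**Figure D1:**
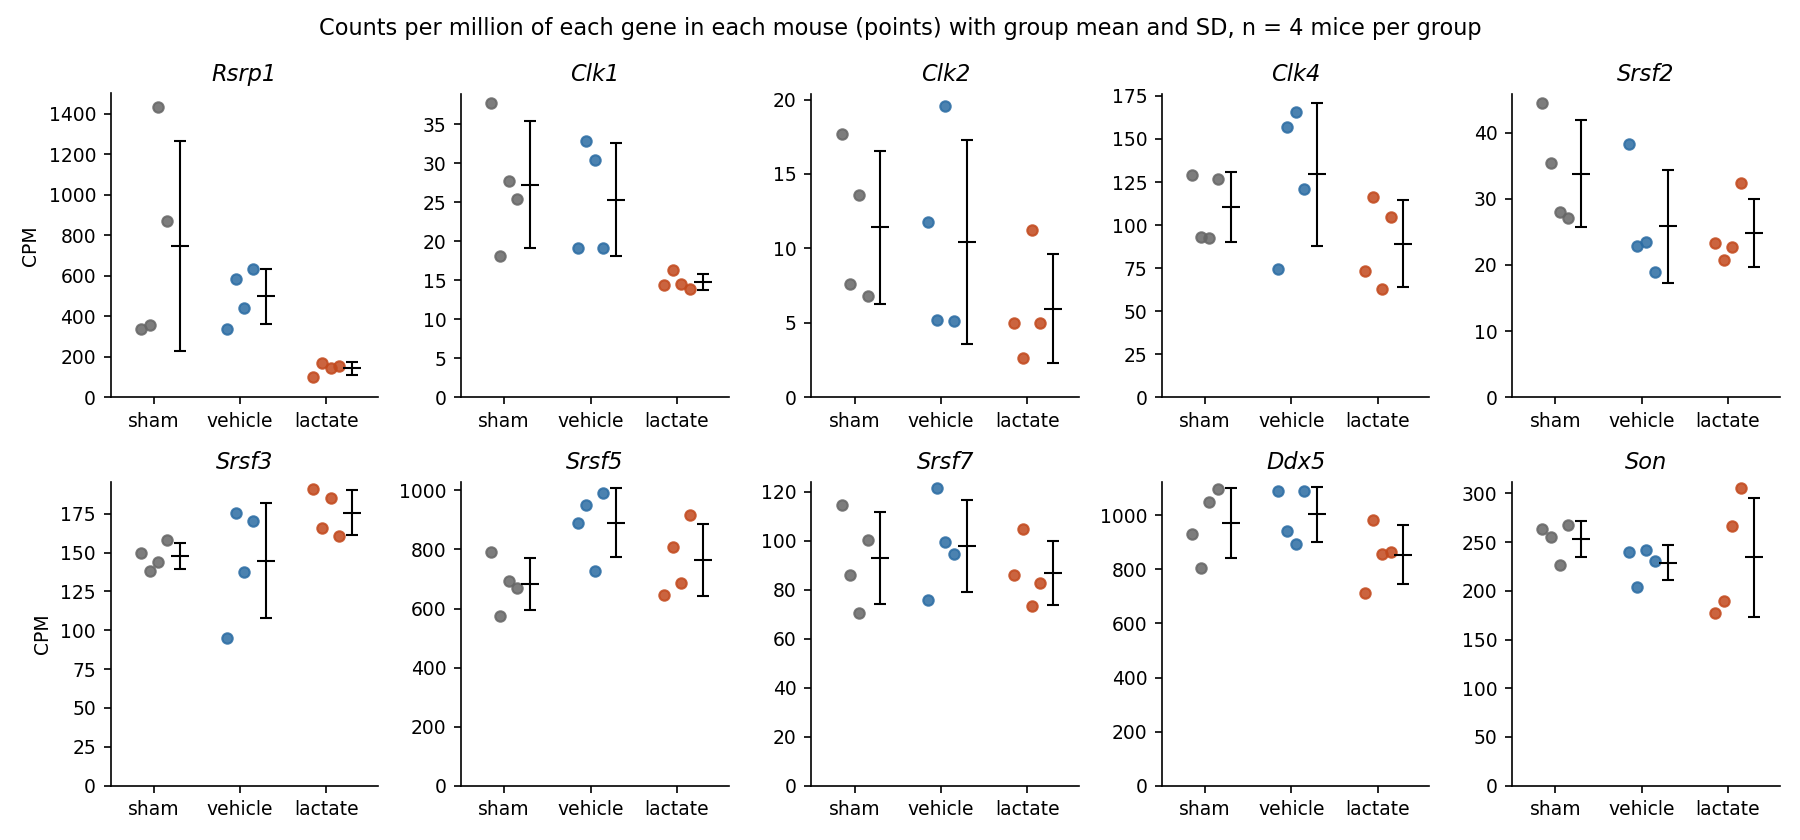
Level of each of the 10 genes in CPM (vertical axes, each starting at 0) in sham, vehicle and lactate mice. Points are single mice in the order 1 to 4, and bars show the mean and SD of 4 mice. The 4 lactate mice lie below all other mice for Rsrp1 and Clk1, and no other panel shows the lactate group apart from both other groups.

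The SR protein genes did not follow Rsrp1 in 1 direction. Srsf2, which binds exonic enhancers and regulates its own decay, was at 44.6, 35.4, 28.0 and 27.1 CPM in sham mice, 38.3, 22.8, 23.4 and 18.9 CPM in vehicle mice, and 23.4, 20.7, 22.7 and 32.4 CPM in lactate mice. Its sham mean was the highest of the 3 groups, and the groups overlapped. Relative to sham, the log2 fold change of Srsf2 was -0.41 ± 0.18 in lactate and -0.34 ± 0.23 in vehicle brains, and lactate relative to vehicle gave -0.09 ± 0.24. Mettl23 and Mfsd11 overlap Srsf2 on the opposite strand.

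Srsf3, the smallest SR protein, which also promotes mRNA export, had its highest mean in lactate brains. It was at 150.1, 138, 144 and 158 CPM in sham mice and at 191, 166, 185 and 161 CPM in lactate mice, so that every lactate mouse lay above every sham mouse. Vehicle mice were at 95.2, 176, 138 and 170.5 CPM, with mouse 1 far below the other 3 and with mice 2 and 4 within the lactate range. Srsf3 in lactate brains differed by 0.28 ± 0.10 from sham and by 0.26 ± 0.18 from vehicle on the log2 scale, and vehicle differed by 0.01 ± 0.18 from sham. Without vehicle mouse 1 the difference of Srsf3 between lactate and vehicle was 0.11 ± 0.12.

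Srsf5, an SR protein whose RNA responds to growth signals, was highest in the vehicle group. It was at 793, 575, 694 and 671 CPM in sham mice, 889.7, 952, 727 and 993 CPM in vehicle mice, and 647, 808, 687 and 917 CPM in lactate mice. Only vehicle mouse 3 of the 4 vehicle mice fell within the sham range, and the lactate mice spread over both. Its log2 fold change relative to sham was 0.42 ± 0.13 in vehicle and 0.20 ± 0.12 in lactate brains, and lactate relative to vehicle gave -0.24 ± 0.14. Srsf7, which acts in splicing, polyadenylation and export, was at 114, 86.1, 70.5 and 100.3 CPM in sham mice, 75.7, 121, 99.6 and 94.5 CPM in vehicle mice, and 86.0, 105, 73.3 and 82.8 CPM in lactate mice. Its means were 92.8 ± 18.8 CPM in sham, 97.8 ± 18.8 in vehicle and 86.7 ± 13.2 in lactate brains (SD, n = 4). All 3 groups of Srsf7 overlapped, and its log2 fold changes were between -0.19 ± 0.16 (lactate relative to vehicle) and 0.11 ± 0.18 (vehicle relative to sham).

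Ddx5 and Son differed little between groups. Ddx5 was at 931, 806, 1048 and 1096 CPM in sham mice, 1089, 940.3, 894 and 1088 CPM in vehicle mice, and 714, 984, 857 and 866 CPM in lactate mice. Of the 4 lactate mice, 3 lay below every vehicle mouse, and the log2 fold change of Ddx5 was -0.25 ± 0.12 for lactate against vehicle and 0.08 ± 0.12 for vehicle against sham. Ddx5 hosts Mir3064, a microRNA gene, on its own strand. Son had means of 253 ± 18.7 CPM in sham, 229 ± 17.7 in vehicle and 235 ± 61.3 in lactate brains (SD, n = 4), and its log2 fold changes lay between -0.11 and 0.01. Sham mice had 226 to 268 CPM and vehicle mice 204 to 242 CPM of Son, with coefficients of variation of 7.40% and 7.75% against 26.1% in lactate mice. Among lactate mice Son split into low values in mice 1 and 2, at 177 and 189.6 CPM, and high values in mice 3 and 4, at 266 and 305 CPM. Donson overlaps Son on the opposite strand.

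**Figure D2:**
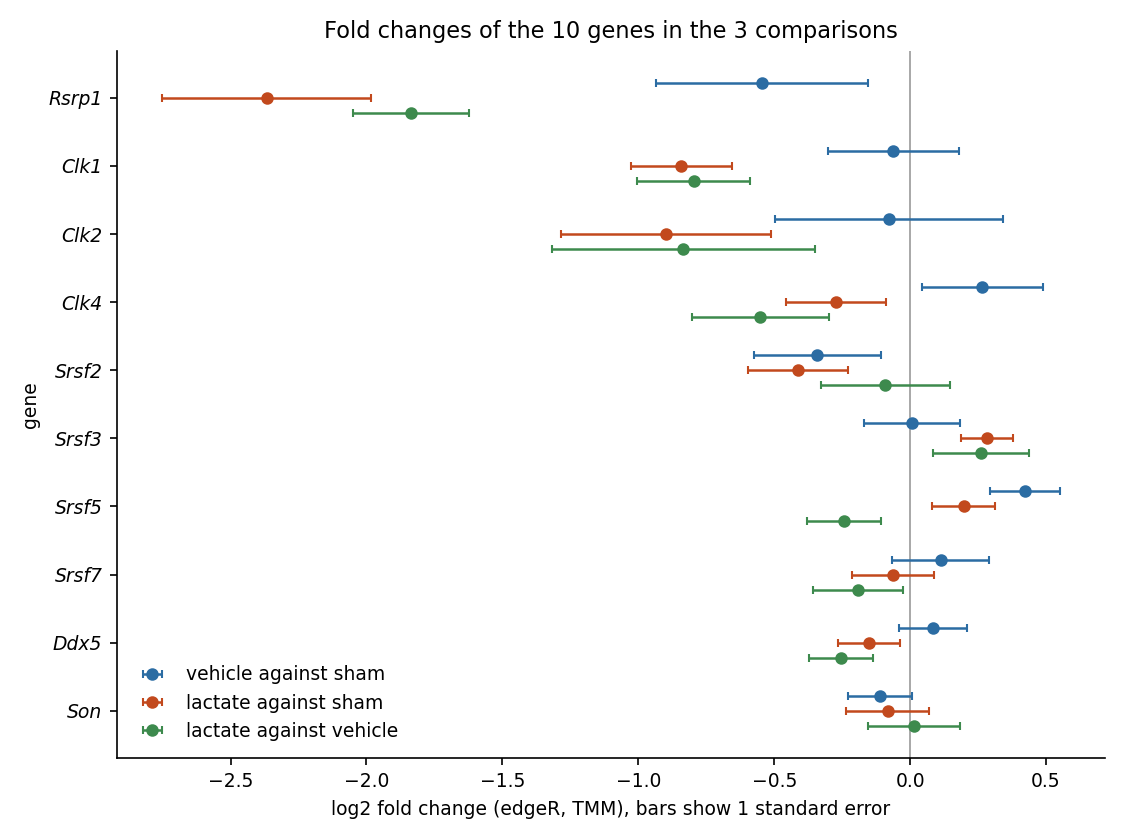
Log2 fold change (horizontal axis) of the 10 genes (vertical axis) in the 3 comparisons, fitted with edgeR on 4 mice against 4, with bars of 1 standard error. Rsrp1 stands at -1.84 for lactate against vehicle and -2.37 for lactate against sham, Clk1 and Clk2 lie between -0.90 and -0.80, and the SR protein genes lie within 0.42 of 0 in every comparison.

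The counts of calls among the 10 genes are given here beside those over all genes, and nothing is read from them. Between vehicle and sham, 0 of the 10 had an adjusted P value under 0.05, where 1.47% of 17019 genes did. In the same comparison 0 met the fold change limits, taken here as an unadjusted P value under 0.05 with the fold change of at least 1.5 that the study used (9.52% of all genes), and 0 had groups that did not overlap (9.03%). Between lactate and sham, 2 of the 10 (Rsrp1 and Clk1) passed the adjusted limit, as did 12.3% of 17262 genes. Srsf3 was called as well in DESeq2, and Clk2 with the mouse number as a block or without lactate mouse 3. The fold change limits were met by 3 (Rsrp1, Clk1 and Clk2) against 17.5% of all genes, and 3 (Rsrp1, Clk1 and Srsf3) had groups that did not overlap, against 19.1%. Between lactate and vehicle, Rsrp1 was the 1 gene of 17419 with an adjusted P value under 0.05 (0.00574%). The fold change limits were met by Rsrp1 and Clk1, against 6.23% of all genes, and the same 2 genes had groups that did not overlap, against 4.81%.

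The adjusted call of Rsrp1 between lactate and vehicle was kept without vehicle mouse 1 or vehicle mouse 3, and it was lost without vehicle mouse 2, vehicle mouse 4 or any 1 of the 4 lactate mice, although the log2 fold change of Rsrp1 stayed between -1.93 and -1.70 in those 6 fits. With all 12 mice in one fit the call was lost as well. Rsrp1 was chosen on these same values, so neither keeping nor losing the call is a test of it. DESeq2 called Rsrp1, among 53 higher and 9 lower genes. The 10 genes had a median log2 fold change of -0.25 between lactate and vehicle, -0.21 between lactate and sham and -0.03 between vehicle and sham, beside -0.03, -0.03 and 0.00 over all genes tested. The comparisons share groups of mice, so their values are given side by side only.

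Whether the other members moved with Rsrp1 from mouse to mouse was examined within groups, on the deviations of log2(CPM + 1) from the mean of each group over 12 mice, which does not use the group differences. No member passed adjustment over the 9 genes by Pearson's r, in exact two-sided permutations within groups. Srsf2 had the strongest relation, and it was inverse, with r = -0.64 (exact permutation p = 0.034, adjusted 0.30) and Spearman's rho = -0.87 (exact permutation p = 0.0043, adjusted 0.039). Only r was repeated in the alternative settings, so this rho was not checked in them. Srsf2 deviated to the same side as Rsrp1 in 0 of 4 sham, 1 of 4 vehicle and 2 of 4 lactate mice. Without sham mice 1 and 3, whose Rsrp1 values lay farthest from the median, r for Srsf2 was -0.56. Ddx5 had the strongest positive relation, with r = 0.61 (exact permutation p = 0.075, adjusted 0.34) and rho = 0.59 (exact permutation p = 0.077, adjusted 0.24), and r was 0.67 without those mice. For Ddx5, 4 of 4 sham mice and 4 of 4 lactate mice deviated to the same side as Rsrp1, but only 2 of 4 vehicle mice did. The CLK genes showed r of 0.10 for Clk1, -0.25 for Clk2 and 0.19 for Clk4, with exact permutation p between 0.42 and 0.85. Without sham mice 1 and 3, r was 0.61 for Clk4, 0.64 for Srsf5, 0.55 for Srsf7, 0.53 for Srsf3 and 0.47 for Clk1, so that these relations depend on the 2 sham mice at the ends of the Rsrp1 range. Between members other than Rsrp1, the closest pair was Clk4 and Srsf7 with r = 0.81, given as a description. CPM values of a library sum to a constant, and 2 genes can therefore be drawn apart by shifts elsewhere in the library.

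**Figure D3:**
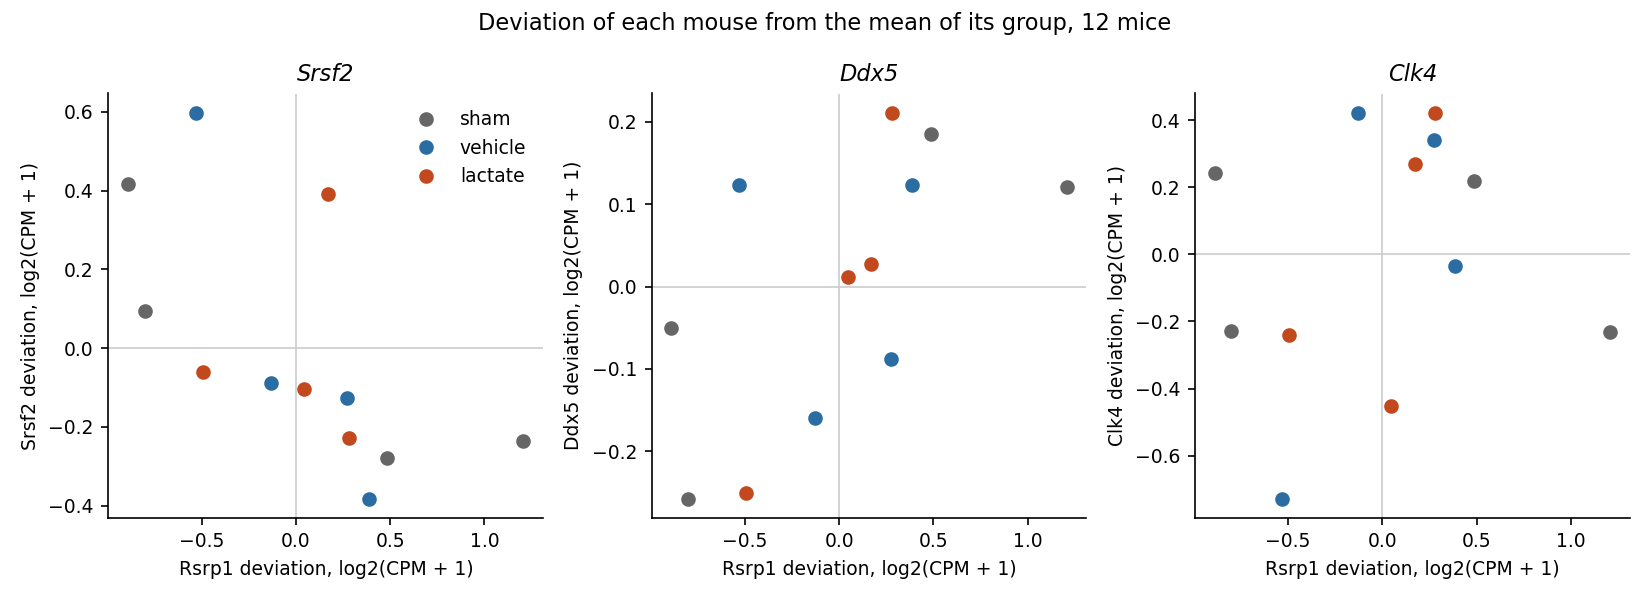
Deviation of each mouse from its group mean in log2(CPM + 1) for Rsrp1 (horizontal axes) and for Srsf2, Ddx5 and Clk4 (vertical axes), with 12 mice coloured by group. Srsf2 runs against Rsrp1 (r = -0.64), Ddx5 runs with it (r = 0.61), and Clk4 shows little relation (r = 0.19).

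By the same measure, the 8 genes most like Rsrp1 among 12895 genes were Slc25a46, Socs3, Itprid2, Olfr259, Ddost, Pcdhb7, Hsp90b1 and Cactin, with r from 0.87 to 0.92 over 12 mice. They were picked as the extremes of many genes, so r carries no test, and without the 2 farthest mice it was between 0.70 and 0.87. The members were left out of this search, and none of the 8 is in the splicing lists, which do not hold every splicing gene. Their group levels went in different directions. Hsp90b1, a chaperone of the endoplasmic reticulum, had means of 139, 171 and 249.9 CPM in sham, vehicle and lactate brains, highest where Rsrp1 was lowest. Socs3, a feedback inhibitor of cytokine signalling, had means of 1.46, 9.64 and 11.1 CPM in the same order. Pcdhb7, a protocadherin, was lower in lactate brains like Rsrp1, at 1.94 CPM against 5.31 in sham and 4.56 in vehicle brains.

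The other genes of the splicing system were read from 8 lists of 142 genes in all, which were drawn up by function with earlier results of these mice known. Between vehicle and sham, 1 of the 141 genes tested passed an adjusted P value of 0.05, where 1.47% of all genes did. This gene was Dyrk3, a kinase that dissolves speckles and other condensates, which rose with a log2 fold change of 1.63 ± 0.32 (edgeR adjusted p = 0.022). Dyrk3 was at 1.19, 1.00, 1.09 and 2.10 CPM in sham mice and at 3.75, 3.89, 5.10 and 3.67 CPM in vehicle mice, without overlap. The call was lost without sham mouse 1, 2 or 3 or without vehicle mouse 2 or 3, with adjusted p up to 0.094 in edgeR. In lactate mice Dyrk3 spread from 0.923 to 4.06 CPM.

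Between lactate and sham, 15 of 141 list genes passed (10.6%, where 12.3% of all genes did), 9 higher and 6 lower. The list genes all have an Ensembl identifier, while the share over all genes also counts other loci. Fitted on genes with an Ensembl identifier alone, 672 were higher and 331 lower of 13337, and of the list calls those of Srsf12 and Srpk3 were lost. Among the 7 other SR proteins, 1 rose and 2 fell. Srsf1, the founding SR protein, fell by 0.62 on the log2 scale (standard error 0.14, edgeR adjusted p = 0.014), from 19.2 to 23.1 CPM in sham mice to 11.98 to 15.7 CPM in lactate mice, and it passed in each of the 8 fits that left out a mouse but not with all 12 mice in one fit (adjusted p = 0.099). Srsf12 fell by 0.82 (standard error 0.24, edgeR adjusted p = 0.043) and Srsf9 rose by 0.44 ± 0.13 (edgeR adjusted p = 0.043), and these calls were kept in only 2 and 1 of those 8 fits and lost in 3 and 4 of the 8 other settings. Srsf1 and Srsf12 were also lower against vehicle, with log2 fold changes of -0.86 ± 0.26 and -0.74 ± 0.24, which did not pass (edgeR adjusted p = 0.48 and 0.50).

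Of the 28 SR-related proteins, 2 rose and 1 fell with lactate against sham. Acin1, a component of the exon junction complex with a role in apoptosis, rose by 0.61 ± 0.12 (edgeR adjusted p = 0.0062) and passed in all 16 alternatives. Acin1 was at 222, 204, 234 and 213 CPM in sham mice, at 190.3, 167, 213 and 199 CPM in vehicle mice and at 374, 373, 287 and 266 CPM in lactate mice. The lactate group stood apart from both others. Against vehicle, its log2 fold change of 0.74 ± 0.14 did not pass in edgeR (adjusted p = 0.36) and passed in DESeq2 (adjusted p = 0.0066), where it was the only list gene that did. Tra2b, a splicing activator that binds SR proteins, rose by 0.61 ± 0.15 (edgeR adjusted p = 0.021), and Rbm5, a regulator of apoptotic splicing, fell by 0.57 (standard error 0.14, edgeR adjusted p = 0.021). Both calls were kept in 4 of the 8 fits without 1 mouse and lost with all 12 mice in one fit.

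Among 9 other SR and speckle kinases tested, Srpk3 alone passed against sham, falling by 1.39 on the log2 scale (standard error 0.38, edgeR adjusted p = 0.030) at levels of 0.396 to 2.22 CPM. Of 24 hnRNP proteins, which often act against SR proteins at the same exons, Hnrnpc rose by 0.49 ± 0.08 (edgeR adjusted p = 0.0029) and Hnrnpll, which controls exon skipping in lymphocytes, rose by 0.90 ± 0.27 (edgeR adjusted p = 0.044). The Hnrnpc call was kept in all 8 fits without 1 mouse, that of Hnrnpll in 2 of them and that of Srpk3 in 4. Srpk3 also did not pass in DESeq2 (adjusted p = 0.059) or among genes with an Ensembl identifier alone (edgeR adjusted p = 0.055). Of 30 core spliceosome proteins, Snrpa rose by 0.48 ± 0.12, Snrpb by 0.50 ± 0.11 and Prpf3 by 0.55 ± 0.13 (edgeR adjusted p = 0.022, 0.011 and 0.017), and none fell. Of 21 brain splicing regulators, Mbnl2 rose by 0.43 ± 0.10 and Celf1 fell by 0.45 (standard error 0.11, edgeR adjusted p = 0.016 and 0.019). Of the 8 fits without 1 mouse, the call of Snrpb was kept in 8, Prpf3 in 7, Mbnl2 in 6, and Snrpa and Celf1 in 5 each, and with all 12 mice in one fit those of Hnrnpll, Snrpa, Prpf3, Celf1 and Srsf9 were lost. None of 20 other DEAD and DEAH box helicases passed, and Ddx21 came nearest at 0.66 ± 0.23 (edgeR adjusted p = 0.075). Rbm3, induced by mild cold, fell by 0.55 (standard error 0.10, edgeR adjusted p = 0.0043), from 398 to 443 CPM in sham mice to 240.0 to 322 CPM in lactate mice, while its relative Cirbp, at -0.21 on the log2 scale, did not pass.

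Between lactate and vehicle, 0 of 140 list genes passed adjustment in edgeR, with 16 at an unadjusted P value under 0.05 and 1, Acin1, in DESeq2. Over all 17419 genes, 1540 had such an unadjusted P value. At the fold change limits, 1 of the 140 was higher and 6 were lower, where 655 of all genes were higher and 430 lower (6.23% together). Fitted on genes with an Ensembl identifier alone, as all list genes have, 245 were higher and 292 lower of 13321. The medians of the 8 lists in this comparison ran from -0.46 for the 2 cold-inducible genes to 0.05 for the other SR proteins, and that of the 140 genes together was -0.03, beside -0.03 for all genes.

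**Figure D4:**
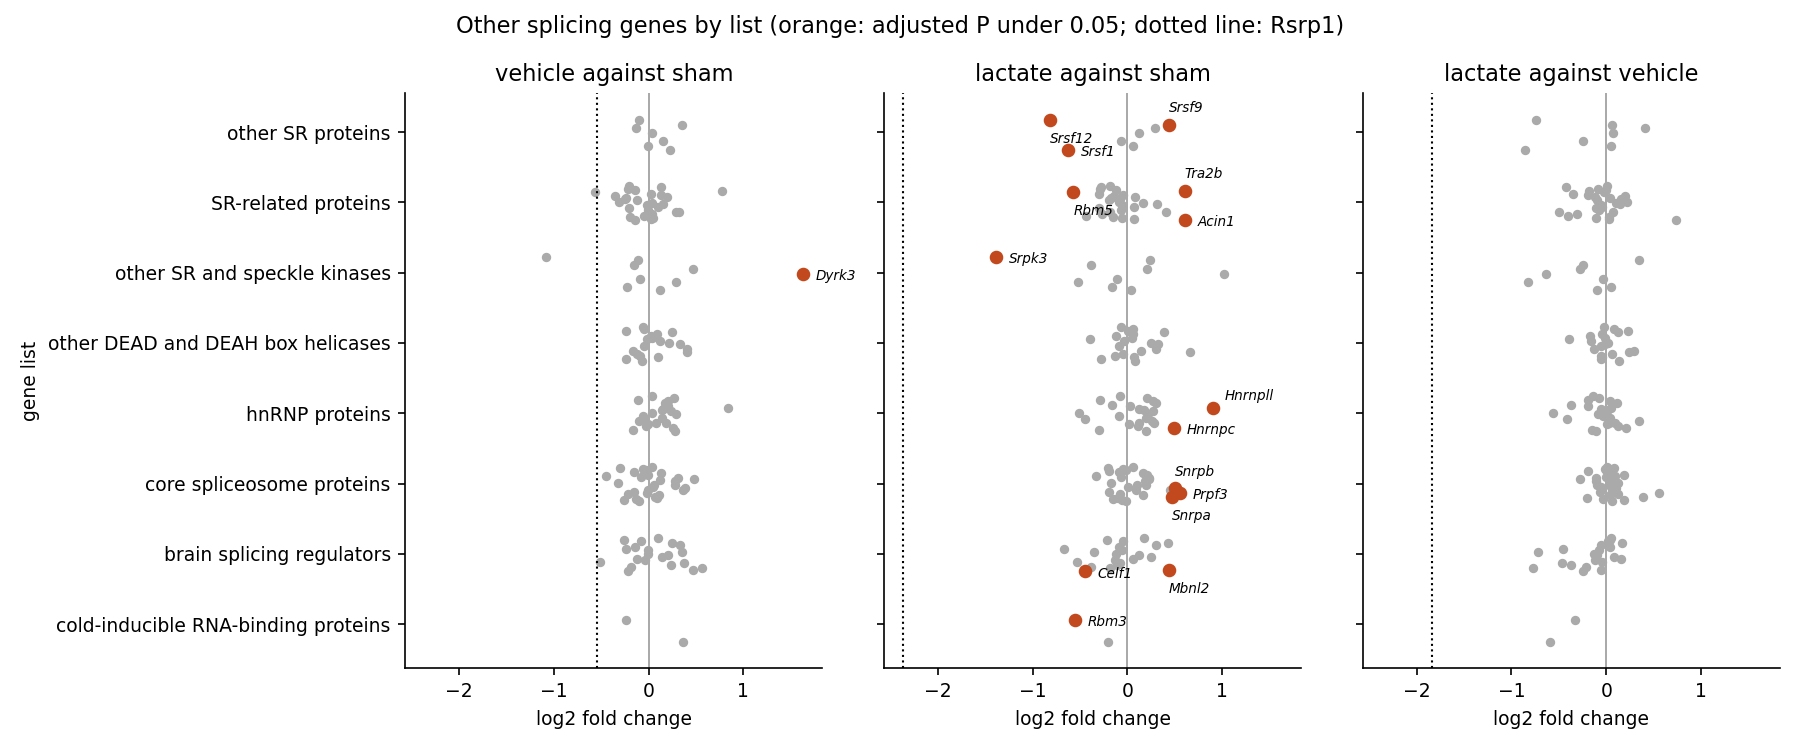
Log2 fold change (horizontal axes) of the other splicing genes in 8 lists (vertical axis) for the 3 comparisons, 1 point per gene, with genes at an edgeR adjusted P value under 0.05 in orange and Rsrp1 as a dotted line. Passing genes number 1, 15 and 0 from left to right, and Rsrp1 lies outside the range of the lists in both comparisons with lactate.

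Other RNAs moved in the same groups, and their part in the Rsrp1 and Clk1 differences was not tested. Of 5 nuclear-retained RNAs found in the table, Meg3 and Snhg11 fell with lactate against sham, by 0.78 and 0.74 on the log2 scale (edgeR adjusted p = 0.023 and 0.037), and the sum of the 5 was 2140 to 3432 CPM in sham, 2111 to 2726 CPM in vehicle and 1552 to 2105 CPM in lactate mice. Among sham mice 1 to 4, Meg3 was at 1537, 757, 1074 and 719 CPM and Snhg11 at 925, 460, 490 and 410 CPM. Mouse 1 was thus the highest for both. The 13 mitochondrial mRNAs summed to 12882 to 21020.2, 9088 to 20595 and 11317 to 13175 CPM in sham, vehicle and lactate mice, with 1 of 13 called lower with lactate against sham. Their patterns among sham mice 1 to 4 differed. For example, mt-Co1 was at 1889, 1480, 3518 and 3948 CPM and mt-Cytb at 2505, 2255, 2116 and 2668 CPM. Between lactate and vehicle, 0 of the 5 nuclear-retained RNAs and 0 of the 13 mitochondrial mRNAs passed adjustment in edgeR, with 1 and 3 at an unadjusted P value under 0.05.

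Markers of brain cell types were present in every group. The 5 neuron markers summed to 2790 to 3222 CPM in sham, 2509 to 3632 in vehicle and 2398 to 2872 in lactate mice. The 5 oligodendrocyte markers summed to 6867 to 10992, 5431 to 10224 and 8668 to 9739 CPM, and the 5 endothelial markers to 49.0 to 54.7, 41.8 to 60.5 and 41.0 to 66.3 CPM. The 5 astrocyte markers summed to 5618 to 9305, 9048 to 10769.8 and 8988 to 10706 CPM. Aldoc made up nearly all of this sum, with means of 7586, 9488 and 9195 CPM. Mean levels of Slc1a3 and Gja1 were highest in sham mice, and those of Gfap and Aqp4 in lactate mice. Among them 1 of 5, Gfap, rose in both comparisons with sham (edgeR, adjusted P value under 0.05). The 5 microglia markers summed to 124 to 142, 77.6 to 106 and 101 to 112 CPM, and the 5 blood cell markers to 560.4 to 633, 333 to 500.4 and 375 to 499 CPM. By the same limit, 2 of 5 microglia markers fell in vehicle and 1 of 5 in lactate brains against sham, and 4 of 5 blood cell markers and 1 of 5 oligodendrocyte markers fell in lactate brains. Both neutrophil markers that could be tested rose in both ischemic groups, and Ttr, the 1 choroid plexus marker tested, rose in lactate brains, while 0 of 5 neuron and 0 of 5 endothelial markers passed in either comparison with sham, with 0 and 0 neuron and 3 and 1 endothelial markers at an unadjusted P value under 0.05, as had 2346 of 17019 and 4668 of 17262 genes. Between lactate and vehicle none of these markers passed adjustment in edgeR, while at the fold change limits Gfap and Cx3cr1, a microglia marker, were higher with lactate (log2 fold changes of 0.80 ± 0.28 and 0.63 ± 0.23) and Mog, an oligodendrocyte marker, was lower (-0.66 ± 0.22). Ttr also met these limits, with vehicle mouse 2 at 1817 CPM but the other vehicle mice at 2.64 to 13.8 CPM and lactate mice at 7.78 to 16.2 CPM, and 0 other markers had an unadjusted P value under 0.05. Neutrophil markers were low, at 0.892 to 2.24, 8.07 to 66.0 and 15.2 to 36.3 CPM in sum over 5 genes, nearly all from S100a8 and S100a9, while Ly6g and Camp stayed at or under the detection floor of 3 counts in all 12 mice. Choroid plexus markers stood out in vehicle mouse 2, where Ttr reached 1817 CPM against 0.815 to 16.2 CPM in the other 11 mice. Without this mouse the log2 fold change of Rsrp1 for lactate against vehicle was -1.75 and that of Clk1 was -0.65.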

How the data were processed

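Brain RNA of 12 mice in 3 groups was analysed, and groups and mouse numbers were taken from the sample labels. The authors made the deposited count values from nanopore cDNA reads, without normalization: ribosomal, short and low-quality reads were dropped, the full-length ones were aligned by minimap2, and consensus isoforms from pinfish were matched to the annotation by gffcompare. The submitters' processing notes name GRCm38 and DESeq 1.10.1, and how reads were counted per gene and whether strand was used are not given in the sources used here. The deposited CPM values are the authors' counts divided by the total of each mouse. The authors' own test columns, which hold P values and log2 fold changes per pair of groups, were not used. Of the table, 4 lines without a gene were left out, and 0 per-sample columns were unmapped.

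Each pair of groups was fitted on its own by the quasi-likelihood method of edgeR 4.0.16 under R 4.3.3, with TMM scaling. Genes needed a CPM of 1 or more in 4 or more of the 8 mice, and P values were adjusted over all genes tested (Benjamini-Hochberg). P values measure the spread between these mice. Within-group relations used log2(CPM + 1) and all 13824 permutations within groups. The tests were tested on simulated data. Promoters were from RefSeq (GRCm38.p6) and positions from GENCODE mouse M21 (GRCm38). Tables and plots were made in Python 3.11.15 with pandas 2.3.3, numpy 2.4.6, matplotlib 3.10.9 and scipy 1.17.1.

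The members and the lists were chosen with earlier results of these data known. Named genes are all members, in each list and comparison up to 3 genes in each direction with the smallest adjusted P value under 0.05 or else the 2 smallest unadjusted P values, of which some are left out of the text, and the 8 genes most like Rsrp1. Alternatives were DESeq2 1.42.0, RLE size factors, library totals only, 2 other filters, all 12 mice in one fit, the mouse number as a block, only Ensembl genes, for the within-group relations another scaling and another pseudocount, and leaving out each mouse in turn. Detection was limited to 3 counts per mouse, and this floor reflects counting error alone because PCR copies cannot be told from molecules.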

Additional observations from a re-analysis of the deposited data

How the results depend on the processing

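Across the 8 other settings and the fits without 1 mouse, every difference of a member kept its direction where it was called, and the log2 fold change of Rsrp1 for lactate against vehicle ran from -1.98 to -1.70 and that of Clk1 from -0.91 to -0.65. These ranges and the calls of members are descriptions, because the members were chosen on these values. The number of members with an adjusted P value under 0.05 for lactate against vehicle was 1, became 0 with all 12 mice in one fit, and was 0 to 1 without 1 mouse. Over all genes, 1 was higher and 0 lower of 17419 with all 12 mice in one fit. Without vehicle mouse 1 they were 0 higher and 1 lower of 17173, and without vehicle mouse 3 they were 1 higher and 4 lower of 17111. Members at the fold change limits for vehicle against sham were 0, and 0 to 1 without 1 mouse: Rsrp1 was added without sham mouse 1 and Srsf2 without vehicle mouse 1. In the first of these fits 952 genes were higher and 439 lower of 16717 at the same limits. In the second, 1175 were higher and 666 lower of 16699. List genes called for vehicle against sham were 1 and ran from 0 to 2 without 1 mouse. For lactate against sham they were 15, fell to 7 with all 12 mice in one fit, and ran from 7 without sham mouse 3 through 9 without sham mouse 1 to 16 in the fits without 1 mouse, and 5 of the 15 (Srsf1, Acin1, Hnrnpc, Snrpb and Rbm3) were called in each of these. For lactate against vehicle they were 0, and 1 with DESeq2. Srsf1 for vehicle against sham, at 0.22 on the log2 scale, reversed to -0.0528 without vehicle mouse 1 and reached 0.372 without vehicle mouse 2, the extremes without 1 mouse. No member passed adjustment for likeness to Rsrp1 by Pearson's r, and 0 to 1 did without 1 mouse, the 1 being found without lactate mouse 4. The cause of these changes was not tested.

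Mouse numbers repeat between groups, but the mice were different animals. Deviations of same-numbered mice from their group means had correlations from -0.17 to 0.18, 4 of 12 over 0.1. Mice with different numbers were not compared, so these values cannot show whether same-numbered mice shared deviations. With the number as a replicate block, list genes called for vehicle against sham went from 1 to 0, those for lactate against sham from 15 to 17, and Clk2 joined Rsrp1 and Clk1 among the members called for lactate against sham. Over all genes with this block, 179 were higher and 19 lower of 17019 for vehicle against sham. For lactate against sham 1626 were higher and 655 lower of 17262. The floor of 3 counts corresponds to 0.281 to 0.44 CPM, close to the lowest levels of Srpk3.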
